A study of Mus musculus with 6 samples.

Results

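The 10 genes described here encode transcription factors that mark lineages: Foxa2, Tbx20 and Nr2f1, which gained signal in cells homozygous for a p53 mutation, the gonadal and coelomic factors Gata4, Gata6, Lhx9 and Tcf21, and the relatives Nr2f2, Tbx18 and Lhx2. They were chosen by name, with their signal in the homozygous arrays already known, so their differences between homozygous cells and the other groups are a description and carry no test. They are 10 of 18194 genes measured. They are covered by 25 of the 45101 probe sets of the array, a probe set being a group of short probes against the same transcript, and the brightest probe set on average stands for each gene. Of the 10 genes, 9 passed a filter on dim genes, and Lhx2 did not.

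RNA from mouse ovarian surface epithelial cells, the layer that covers the ovary, was measured on 6 Affymetrix arrays. The cells came from tumours of mice of mixed background strain, were released with trypsin, plated in serum-containing DMEM-F12 and used unpassaged. All 6 sample titles carry the mark P/K, which the labels do not spell out. The 2 wild-type arrays are from mice 9 weeks old with wild-type p53. The 2 heterozygous arrays are from mice 9 and 12 weeks old whose cells had wild-type p53 and p53 R172H, an amino acid change in the DNA-binding domain. The 2 homozygous arrays are from mice 4 weeks old homozygous for R172H, so age and homozygosity cannot be told apart. A source field of the homozygous samples names another p53-family gene, and the titles were followed. The labels do not say whether 2 arrays of a group came from separate animals, apart from the ages of the heterozygous pair, so p-values measure the spread between these arrays, which may be technical. The p53 transcript was not analysed here.

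The arrays differed in how closely they matched. Over the 10916 genes that passed the filter, the SD of log2 differences within a pair of arrays was 0.60 for the wild-type pair, 0.55 for the heterozygous pair and 1.30 for the homozygous pair. The closest arrays, wild-type array 2 and heterozygous array 1 (SD 0.31), belong to different groups. Homozygous array 1 was farther from the wild-type arrays (SD 1.75 and 1.63) than homozygous array 2 was (1.18 and 1.07). The same held against the heterozygous arrays (1.65 and 1.80, then 1.07 and 1.21). All 14 listed markers of ovarian surface epithelium and mesothelium were measured and 12 were above background in every array, but Cdh1 was low throughout. Their summed signal was 161652 to 221096 in the 4 wild-type and heterozygous arrays and 67936 and 81433 in the homozygous arrays. In bulk RNA, fewer cells of a type and less RNA per cell cannot be told apart.

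Lineage transcription factors bind DNA at enhancers and promoters and set which programme of genes a cell uses. Foxa2 is a forkhead factor that opens closed chromatin and is known from endoderm, notochord, liver, lung and uterine glands. Tbx20 is a T-box factor of the developing heart, and Tbx18, a T-box factor too, is known from the epicardium and the coelomic lining of the urogenital ridge. Nr2f1 and Nr2f2 encode COUP-TFI and COUP-TFII, orphan nuclear receptors of developing nervous system, vessels and mesenchyme. Gata4 and Gata6 are zinc-finger factors needed in heart and gonad, where they act on genes of steroid and hormone production. Lhx9 and Lhx2 are LIM-homeodomain factors, and Lhx9 is required for the gonad to form. Tcf21 is a basic helix-loop-helix factor of coelom-derived mesenchyme, including that of gonad, kidney and epicardium.

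The RefSeq windows of 250 bases before a transcript start (mouse build GRCm38.p6) are shown for the 3 factors that gained signal, as the stretches in which a shared motif would be looked for, and for Tcf21, whose level separated the homozygous arrays most widely. Bases are in lower case and a motif match is in capitals.
Foxa2, chr2:148046970-148047219, minus strand: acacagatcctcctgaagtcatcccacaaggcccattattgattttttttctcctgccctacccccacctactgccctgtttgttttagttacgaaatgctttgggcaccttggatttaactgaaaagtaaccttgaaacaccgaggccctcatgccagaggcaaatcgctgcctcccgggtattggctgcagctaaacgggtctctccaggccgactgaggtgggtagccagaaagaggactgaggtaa
Tbx20, chr9:24774304-24774553, minus strand: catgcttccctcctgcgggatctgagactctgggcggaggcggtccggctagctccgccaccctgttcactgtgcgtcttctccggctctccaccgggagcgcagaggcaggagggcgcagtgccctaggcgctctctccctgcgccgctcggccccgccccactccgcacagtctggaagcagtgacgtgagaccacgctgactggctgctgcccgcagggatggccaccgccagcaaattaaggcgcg
Nr2f1, chr13:78198874-78199123, minus strand: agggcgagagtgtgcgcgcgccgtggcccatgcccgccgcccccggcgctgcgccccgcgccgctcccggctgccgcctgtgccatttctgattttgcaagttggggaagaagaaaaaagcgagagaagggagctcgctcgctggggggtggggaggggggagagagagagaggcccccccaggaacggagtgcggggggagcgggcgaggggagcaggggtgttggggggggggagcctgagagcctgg
Tcf21, chr10:22820144-22820393, minus strand: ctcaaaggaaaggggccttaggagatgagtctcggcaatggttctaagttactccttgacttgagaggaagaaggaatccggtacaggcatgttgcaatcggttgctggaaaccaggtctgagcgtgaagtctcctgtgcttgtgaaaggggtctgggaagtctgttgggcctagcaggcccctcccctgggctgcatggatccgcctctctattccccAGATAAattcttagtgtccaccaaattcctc
The capitals in the Tcf21 window mark a GATA core (NGATAA on either strand) that begins at position -31 from the start. No match to any of the 7 motifs searched lies in the other windows printed, which says only that these letters are not in them. The printed Foxa2 window holds 6 CpG dinucleotides and the printed Tbx20 and Nr2f1 windows hold 22 each, against a median of 6 over 32851 windows. Windows at other starts, inside the gene models, differ: 2 further Foxa2 windows hold 20 and 13, the second with a GATA core at position -183, and a further Nr2f1 window holds 2 and a forkhead core at position -148.

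Windows of 8 of the 10 genes, 12 windows in all, were searched on both strands. Gata4 had no window. Gata6 was left out because its chromosome was skipped for the factors, though the shares of all windows include that chromosome. A forkhead core (TNTTTAC) lay in 2 of the 12, against 10.9% of all windows. A GATA core lay in 3 of the 12, against 22.5% of all windows. The T-box core GGTGTGA (3.33% of all windows), the COUP-TF core AGGTCA (14.0%), the LIM-homeodomain core TAATTA (4.84%) and the E-box CAGCTG (13%) lay in none. A p53 response-element decamer lay in 1, the Tbx18 window, against 7.13% of all windows. The Lhx9 window, chr1:138842445-138842694 on the minus strand, held a forkhead core that begins at position -219 from the start and a GATA core that begins at position -59. Its start lies 6395 bases inside the gene model, not at the outer end. Motifs that share letters can overlap, and a match is a description of the letters only.

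Foxa2 was close to or under background in cells with a wild-type p53 allele and bright in both homozygous arrays. Its signal was 6.08 and 16.9 in the wild-type arrays, 22.4 and 35.2 in the heterozygous arrays, and 2364 and 840.3 in the homozygous arrays. The background level, the highest of 18 values of bacterial control probe sets, was 24.5, so 3 of the 6 arrays were above it. The groups did not overlap, and homozygous array 1 was 2.81-fold above array 2. Against the wild-type arrays, both under background, the homozygous signal was at least 57.5-fold higher, computed against the background level. The log2 difference without that limit was 7.12 ± 0.71 (limma standard error, n = 2 against 2), and 5.85 with dim values raised to background. Against the heterozygous arrays it was 5.65 on the log2 scale.

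Tbx20 was near or under background outside the homozygous cells. It read 35.5 and 26.2 in wild-type, 8.12 and 13.6 in heterozygous, and 224 and 2127 in homozygous arrays. Both homozygous arrays were above all others, and array 2 was 9.49-fold above array 1, the reverse of the order for Foxa2. The log2 difference from wild type was 4.50 ± 1.06. Against the heterozygous arrays, both under background, Tbx20 was at least 28.2-fold higher.

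Nr2f1 was above background everywhere and was the gained factor with the closest homozygous arrays. Its signal was 43.7 and 104 in wild-type, 64.2 and 95.7 in heterozygous, and 907 and 609 in homozygous arrays. The homozygous arrays exceeded the wild-type mean 11-fold, a log2 difference of 3.46 ± 0.50, and the heterozygous mean by 3.24 on the log2 scale. Its paralogue Nr2f2 was a bright gene in every group: 653 and 524 in wild-type, 595 and 740 in heterozygous, 825 and 1183 in homozygous arrays. The homozygous arrays of Nr2f2 were again the highest, but by 1.69-fold over wild type (log2 0.76 ± 0.29) and by 0.57 on the log2 scale over heterozygous cells.

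**Figure D1:**
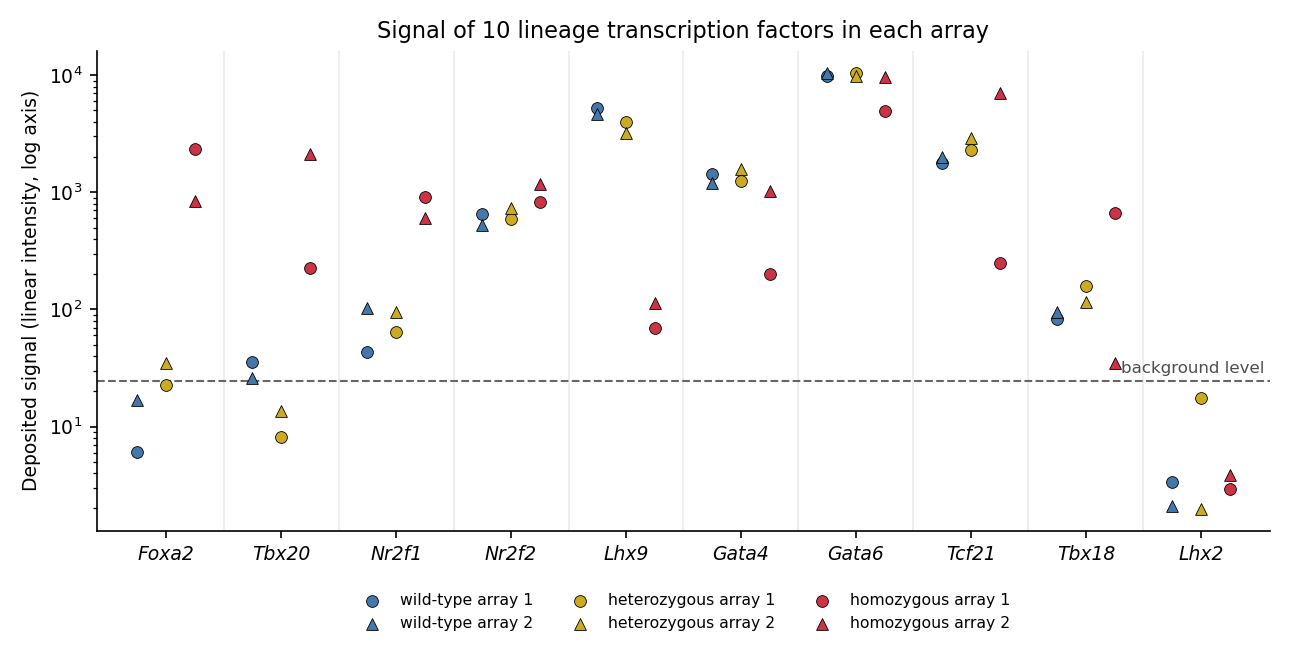
Deposited signal (linear intensity, log axis) of the 10 transcription factors in each of the 6 arrays, coloured by group, with circles for array 1 and triangles for array 2 of a group and a dashed line at the background level of 24.5. Foxa2, Tbx20 and Nr2f1 are highest in both homozygous arrays, Lhx9 is lowest in both, and Tcf21 and Tbx18 have a homozygous array on either side of the other groups.

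Lhx9 was the gonadal factor that was low in both homozygous arrays. Its signal was 5271 and 4673 in wild-type, 4011 and 3194 in heterozygous, and 68.9 and 113 in homozygous arrays. All 6 values were above background, and the homozygous values lay far under the others. The difference from wild type was -5.81 ± 0.32 on the log2 scale, a 56.1-fold lower signal, and from heterozygous cells -5.34, or 40.5-fold lower.

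Gata4 and Gata6 were lower mainly in homozygous array 1. Gata4 read 1429 and 1204 in wild-type, 1253 and 1587 in heterozygous, and 199 and 1027 in homozygous arrays. Against the wild-type mean this was -2.72 in homozygous array 1 and -0.35 in array 2 on the log2 scale, with a group difference of -1.54 ± 0.77. Gata6 read 9787 and 10519 in wild-type, 10523 and 9879 in heterozygous, and 4953 and 9624 in homozygous arrays. Its 4 wild-type and heterozygous values lie close together, homozygous array 1 was -1.03 from the wild-type mean and array 2 was -0.08, and the group difference was -0.56 ± 0.36. For both genes the homozygous values of the brightest probe set did not overlap those of either other group, though array 2 was close to them.

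Tcf21 went opposite ways in the homozygous arrays. Its signal was 1795 and 2005 in wild-type, 2289 and 2912 in heterozygous, and 248 and 7011 in homozygous arrays. The homozygous arrays differed 28.2-fold, with array 1 at -2.93 and array 2 at 1.89 from the wild-type mean on the log2 scale. The group difference of -0.52 ± 1.50 therefore averages a low and a high value. Tbx18 had the mirror order: 83.4 and 95.4 in wild-type, 159.6 and 115 in heterozygous, 661 and 34.6 in homozygous arrays. Homozygous array 1 was 2.89 above and array 2 was -1.37 from the wild-type mean, a 19.1-fold gap within the pair.

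Lhx2, the paralogue of Lhx9, was under background in all 6 arrays, with signals of 1.98 to 17.6. It gave no fold and entered no test. Lhx2 therefore had no measurable signal in the homozygous arrays, where Lhx9 was low.

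Of the 9 factors that passed the filter, 7 had homozygous arrays that did not overlap the wild-type arrays, 4 higher and 3 lower. Over all 10916 genes, 61.2% did not overlap, 27.4% higher and 33.8% lower, and 28.9% had an unadjusted p under 0.05. Against heterozygous arrays the same 7 did not overlap, and over all genes 62.5% did not, 28.2% higher and 34.2% lower, with 30.6% at an unadjusted p under 0.05. These differences chose the factors, so nothing is read from the counts. The median of Foxa2, Tbx20 and Nr2f1 was 4.50 against wild type and 5.65 against heterozygous cells on the log2 scale. The median of Gata4, Gata6, Lhx9 and Tcf21 was -1.05 and -1.30, beside a median over all genes of -0.09 and -0.08. Centring each array on its median moved the homozygous minus wild-type median over all genes to 0.22. The filter bears on these values: Foxa2 and Tbx20 passed it at the 41.9th and 40.05th percentile of mean signal, just above its line at the 40th, and only through their homozygous arrays.

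The homozygous pair was then compared gene by gene, with values under background raised to it. In 1763 genes (16.2% of 10916) both homozygous arrays were past 2-fold from the wild-type mean in the same direction. In 130 genes (1.19%), they were past 2-fold in opposite directions, and Tcf21 and Tbx18 are among these. The median gap between the homozygous arrays was 0.42 on the log2 scale. A gap at least as wide as that of Tcf21 occurred in 0.806% of genes and at least as wide as that of Tbx18 in 1.15%. Foxa2, Tbx20, Nr2f1 and Lhx9 kept their direction in both arrays at more than 2-fold.

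**Figure D2:**
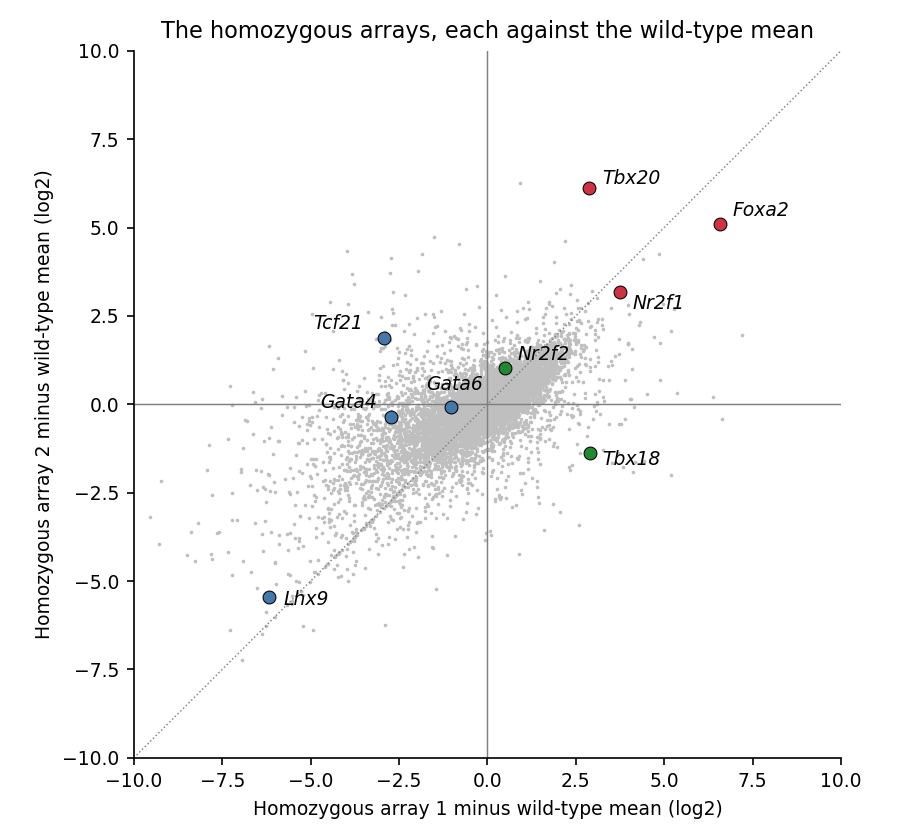
Log2 difference of homozygous array 1 (horizontal) and array 2 (vertical) from the wild-type mean for all tested genes in grey and for 9 factors, with values under background raised to it and a dotted line of equality. Foxa2, Tbx20 and Nr2f1 (red) lie upper right and Lhx9 lower left, while Tcf21 (upper left) and Tbx18 (lower right) fall in the quadrants where the arrays disagree.

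Other probe sets of the same genes were read for the same pattern. For Lhx9, 3 further probe sets gave -6.06, -5.90 and -4.93 (log2, homozygous minus wild type), so all 4 were low in both arrays. The last 2 were under background in both homozygous arrays, so their sizes are not measured folds. For Tbx20, 2 dimmer probe sets gave 2.90 and 2.45, but their wild-type values were all under background, and the dimmer of them was above background in 1 array only, so these sizes are not measured folds. For Gata6, the other 2 gave -0.67 and -0.60, with array 1 again the lower. The second probe set of Gata4 was dim and gave -0.40, with -1.58 in array 1 and 0.78 in array 2. In each of these Gata6 and Gata4 probe sets, homozygous array 2 lay between the heterozygous values, so these groups overlapped there.

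The split of the homozygous pair recurred in the second probe sets of Tcf21 and Tbx18. That of Tcf21 gave -0.93 in array 1 and 1.63 in array 2, and its group difference was 0.35, opposite in sign to the brighter probe set. That of Tbx18 gave 1.98 and -4.08, with the array 2 value under background, and a group difference of -1.05, again opposite in sign. For Nr2f2, 4 of the other 5 probe sets gave 0.78, 0.57, 0.27 and 1.20, the last above background in 1 array, and the fifth gave -0.24 and was under background throughout. Those 4 were at 0.66, 0.0015, -0.28 and -0.26 from the wild-type mean in homozygous array 1, and at 0.90, 1.14, 0.81 and 2.67 in array 2. Only the first was thus clearly raised in both homozygous arrays. Foxa2, Nr2f1 and Lhx2 have a single probe set each, so no other probe set bears on them.

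**Figure D3:**
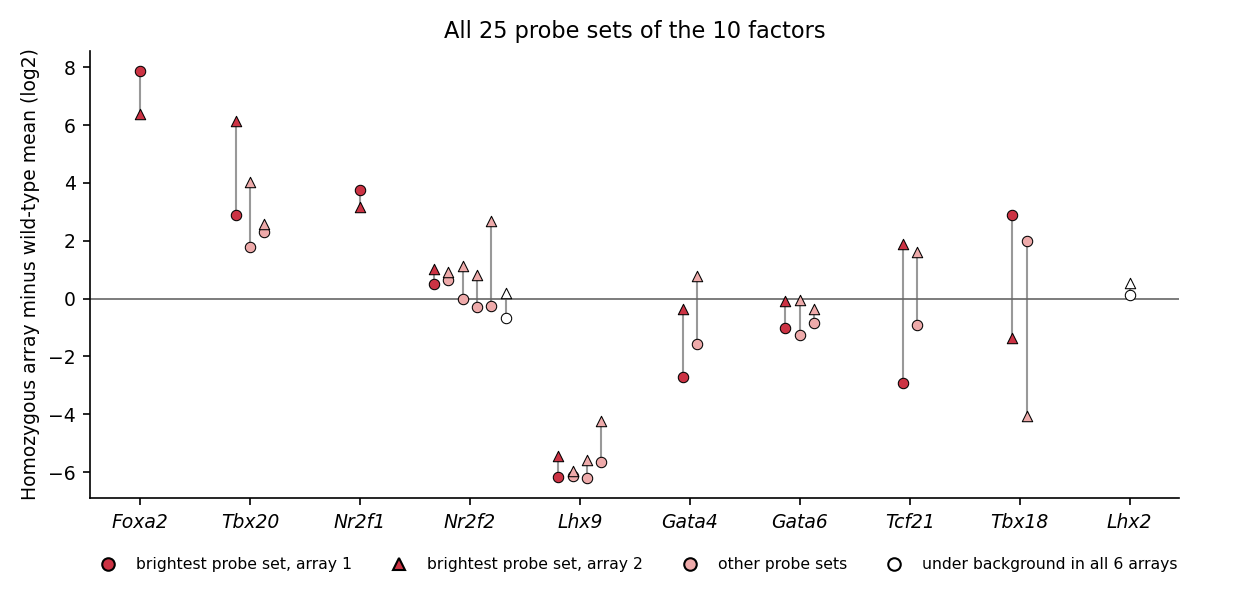
Log2 difference of each homozygous array (circle, array 1; triangle, array 2) from the wild-type mean for all 25 probe sets of the 10 factors, the pair joined by a line. The 4 Lhx9 probe sets lie between -6.20 and -4.22 in both arrays, whereas both probe sets of Tcf21 and of Tbx18 span 0. Values are not raised to background, and the 2 dimmest Lhx9 probe sets were under it in both homozygous arrays.

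Heterozygous cells gave the comparison that did not choose the factors. None of the 9 tested factors was called between heterozygous and wild-type arrays (limma, Benjamini-Hochberg adjusted p of 1.00 for each), and none of 10916 genes was called (0%), with 71 genes (0.650%) at an unadjusted p under 0.05. With 2 arrays a group this does not show that levels were equal. The errors also pool the spread of all 3 groups, homozygous included. The mean variance within a pair was 0.178 for wild-type, 0.154 for heterozygous and 0.877 for homozygous arrays. Foxa2 and Tbx20, at or near background in these 4 arrays, could hardly be assessed. They entered this test only because their homozygous arrays lifted them past the filter. The lowest unadjusted p of a factor, 0.090, was that of Foxa2, at a log2 difference of 1.47 ± 0.71. That difference fell to 0.26 when values were raised to background, since 3 of the 4 signals were under it. Tbx20 was -1.54 ± 1.06, and -0.31 once raised.

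Among the factors above background in every array Lhx9 had the difference widest against its error. It was at -0.47 ± 0.32 with both heterozygous arrays under both wild-type arrays, on each of its 4 probe sets. Tcf21 was at 0.44 ± 1.50 and Tbx18 at 0.61 ± 1.34, without overlap between the pairs. Their errors share the spread of all 3 groups: the log2 SD of Tcf21 was 0.11 in wild-type, 0.25 in heterozygous and 3.41 in homozygous arrays, and that of Tbx18 was 0.14, 0.33 and 3.01. Gata4 was at 0.10 ± 0.77, Gata6 at 0.01 ± 0.36, Nr2f1 at 0.22 ± 0.50 and Nr2f2 at 0.18 ± 0.29, with overlap. Of the factors above background in every array, Lhx9, Tcf21 and Tbx18 were thus those without such overlap on the brightest probe set. Over all genes 26.0% did not overlap. The second, dimmer probe sets of Tcf21 (-0.17) and Tbx18 (-0.36) did overlap and had the opposite sign. Those of Gata4 (0.74) and Nr2f2 (-0.32) did not overlap, and that of Nr2f2 was opposite in sign to its brightest. The pairs of Foxa2 and Tbx20 did not overlap either, but on values mostly near or under background.

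Likeness between factors was measured as the root mean square difference of gene-centred log2 values over the 6 arrays, raised to background. The values were not scaled, so a small difference can mean a like profile or only that both genes changed little. Foxa2 was 1.20 from Nr2f1 and 1.49 from Tbx20, and 5.37 from Lhx9. Gata4 was 0.65 from Gata6, 0.83 from Tcf21 and 1.96 from Lhx9. It was nearer than Lhx9 to Lhx2 (1.02), under background throughout, and to Nr2f2 (1.19), highest in the homozygous arrays. Gata6 was nearer to Lhx2 (0.38) and Nr2f2 (0.62) than to Gata4, so these distances do not set the gonadal factors apart. Over 10907 other genes, those most like Foxa2 were Eya4 (0.66), Cdkn2a (0.97), Hmga2 (0.99), Ripor2 (1.06) and Dmrta2 (1.14). Eya4, a transcriptional cofactor of the eyes absent family, read 5.53 and 49.2 in wild-type, 25.5 and 27.6 in heterozygous, and 1014 and 658 in homozygous arrays. Cdkn2a, which encodes the cell cycle inhibitors p16 and Arf, read 639 and 237, then 492 and 598, then 8180 and 6769. Hmga2, a chromatin protein of embryonic and tumour cells, read 127 and 243, then 224 and 129, then 6748 and 1147 in the same order of groups.

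The genes most like Gata4 were Man1c1 (0.11), Lrpap1 (0.12), Tspyl4 (0.13), Reck (0.14) and Sdc2 (0.14), all of which were lowest in homozygous array 1. Sdc2, a cell surface proteoglycan, for example read 3026 and 3356 in wild-type, 3534 and 3761 in heterozygous, and 475 and 2588 in homozygous arrays. Those most like Lhx9 were Cybrd1 (0.21), Rnase4 (0.28), Capn6 (0.39), Dapk2 (0.41) and Kdr (0.43). Rnase4, a secreted ribonuclease, read 8715 and 6794 in wild-type, 5768 and 6727 in heterozygous, and 166 and 180.1 in homozygous arrays. Kdr, a receptor for VEGF known best from endothelium, read 2469 and 1213, then 1104 and 1483, then 35.9 and 60.4. These genes were picked for their likeness over the same 6 arrays, so their values carry no test.

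Genes beside the factors on the chromosome, chosen by position alone, were read next. Of 40 measured neighbours 23 were tested and none was called in any comparison (limma, adjusted p under 0.05), where 2.67% of all genes were called between homozygous and wild-type arrays and 4.09% between homozygous and heterozygous arrays. At an unadjusted p under 0.05 there were 9 and 8 of the 23 in these comparisons, against 28.9% and 30.6% of all genes, and 0 between heterozygous and wild-type arrays, against 0.650%. The median neighbour was at -0.22 against wild type and -0.32 against heterozygous cells. Eya4, the gene most like Foxa2 in profile, is a neighbour of Tcf21. A830082K12Rik, a transcript beside Nr2f1, read 19.7 and 25.8 in wild-type, 20.2 and 27.2 in heterozygous, and 179.9 and 52.1 in homozygous arrays, and was too dim to be tested. Thbd, which encodes thrombomodulin and lies near Foxa2, read 3908 and 2429, then 1546 and 2478, then 36.1 and 2888, low in homozygous array 1 where Foxa2 was highest.

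Lists of related genes were counted beside the factors: 121 genes of the same families or of the programmes these factors are known for, of which 110 were measured and 48 tested. They were written with results of these data known and are described by counts and medians. Between homozygous and wild-type arrays 0 rose and 2 fell, against 0.412% higher and 2.25% lower of all genes, with a median of -0.58. Between homozygous and heterozygous arrays 0 rose and 1 fell, against 0.870% and 3.22%, with a median of -0.47. At an unadjusted p under 0.05 (limma) there were 15 and 14 of the 48 in these comparisons, beside 28.9% and 30.6% of all genes. Between heterozygous and wild-type arrays none was called and 0 had an unadjusted p under 0.05, with a median of -0.06. These counts depend on the homozygous arrays: without array 1, 1 rose and 7 fell against wild type, and without array 2, 4 rose and 19 fell. In these settings the lone homozygous array is assumed to vary like the other groups, and over all genes 126 rose and 582 fell, and 764 rose and 1939 fell. With any single wild-type or heterozygous array left out, none was called in either comparison.

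Forkhead relatives and endoderm genes were mostly near background. Of 20 listed, 18 were measured, 1 was above background in all arrays and none was bright enough to be tested. Hnf4a, a nuclear receptor of liver and gut, read 28.8 to 62.9 over the 6 arrays, and Sox17, an endoderm factor, 15.2 to 60.9. Hhex, a homeobox gene of liver and thyroid, read 36.1 and 7.61 in wild-type, 6.62 and 12.2 in heterozygous, and 1045 and 48.9 in homozygous arrays, so it was bright in array 1. The paralogues Foxa1 and Foxa3, named after their values were seen, were at 102 in homozygous array 1 and 34.0 or less elsewhere, and at 14.8 to 57.8. Of 7 measured markers of oviduct and uterine gland epithelium, 3 were tested: Foxa2 itself, Pax8 (-0.89 against wild type, adjusted p = 0.197) and Ovgp1 (0.93, adjusted p = 0.180), and Foxj1 was under background in every array. Of 7 measured markers of definitive endoderm and gut epithelium, Epcam, an epithelial adhesion protein, was the one tested. It read 857 and 1242 in wild-type, 1033 and 555 in heterozygous, and 27.6 and 22.2 in homozygous arrays, and it fell in both comparisons (-5.38, adjusted p = 0.0136, against wild type, and -4.94, adjusted p = 0.0150, against heterozygous cells). With any single wild-type or heterozygous array left out, no gene was called against wild type, Epcam included. The summed signal of that list was 724 to 1392 in the 4 other arrays and 202 and 138 in the homozygous arrays. Epcam made up most of the sum in each of the 4 other arrays, so the lower sum is largely that of Epcam alone.

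T-box genes were mostly dim, and 2 of 13 measured were tested. Tbx2, a repressor of cell cycle inhibitors, read 290 and 262 in wild-type, 259 and 195 in heterozygous, and 97.4 and 78.1 in homozygous arrays, so it fell where Tbx20 was high. It was called against wild type (-1.66, limma adjusted p = 0.0480) but not against heterozygous cells (-1.36, adjusted p = 0.0572), and over 16 other settings the adjusted p against wild type ran from 0.0234 to 0.440, with 4 under 0.05. Centring the arrays (0.0886) and leaving out a wild-type array (0.280 and 0.184) or a heterozygous array (0.135 and 0.134) ended the call. Mga was at 0.59 and was not called, and Eomes was too dim to be tested.

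Relatives and partners of the other factors gave no call. For COUP-TF relatives 6 were tested, with a median of 0.24 against wild type, and Zfpm2, the FOG2 cofactor of GATA factors, was at 0.31. For GATA factors and cofactors 7 were tested, with a median of 0.31. Gata5 read 818 and 540.4 in wild-type, 710 and 469 in heterozygous, and 49.0 and 349 in homozygous arrays, with homozygous array 1 the lowest, as for Gata4. For LIM-homeodomain factors and partners 6 were tested, with a median of -0.53, and the bright partners Lmo4 and Ssbp3 were at -1.11 and -1.15. For basic helix-loop-helix relatives of Tcf21 8 were tested, with a median of 0.48. Hand2, a factor of heart and limb, read 407 and 200.3 in wild-type, 275 and 426 in heterozygous, and 1095 and 2542 in homozygous arrays (adjusted p = 0.0724), higher in both homozygous arrays. Unadjusted p-values under 0.05 (limma, against wild type) numbered 0, 1, 2 and 2 in these 4 lists, beside 28.9% of all genes.

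Gonadal ridge factors other than the 4 described above included a gene that fell. Of 14 tested gonadal ridge and coelomic factors, 1 fell and none rose against wild type, beside 2.25% and 0.412% of all genes. Of the 14, 10 were below 0 and 6 had an unadjusted p under 0.05 (limma), beside 28.9% of all genes. The median was -1.23, and -1.28 against heterozygous cells. The gene that fell, Irx3, an Iroquois homeobox factor of the ovary among other organs, read 3188 and 4818 in wild-type, 3664 and 4062 in heterozygous, and 298 and 182 in homozygous arrays. It was called in both comparisons (-4.07, adjusted p = 0.0171; -4.05, adjusted p = 0.0153), and in 9 of 17 other settings in each, with adjusted p from 0.00179 to 0.440 against wild type. Leaving out any single wild-type or heterozygous array ended the Irx3 call, with adjusted p of 0.0905 and 0.0879 without heterozygous array 1 or 2, and 0.155 and 0.145 without wild-type array 1 or 2, against wild type. Irx3 was low in both homozygous arrays, as Lhx9 was. Wt1, which marks the coelomic epithelium, read 14759 to 15008 in wild-type, 13269 to 14529 in heterozygous, and 5949 and 8457 in homozygous arrays, and was not called (-1.07, adjusted p = 0.0848).

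Gonadal genes known to be bound by GATA factors had the lowest median of the lists of related genes, though some lists of cell type markers were lower. Of 8 tested, none was called and 7 were below 0. Against wild type 4 had an unadjusted p under 0.05 (limma), beside 28.9% of all genes. The median was -3.32 against wild type and -2.88 against heterozygous cells. Star, which moves cholesterol into mitochondria for steroid synthesis, read 4144 and 2364 in wild-type, 1588 and 2516 in heterozygous, and 39.6 and 592 in homozygous arrays. Amhr2, the receptor for anti-Mullerian hormone, read 8463 and 7575, then 6364 and 7869, then 36.1 and 1352. Inhbb, an inhibin and activin subunit, read 1382 and 1586, then 1626 and 1385, then 18.5 and 3662, so that homozygous array 2 was above the other groups. In each of the 3 genes homozygous array 1 was the lowest, the array in which Gata4 and Gata6 were lowest. Over all tested genes that array was also the homozygous array farther from the other groups. A link between these genes and the GATA factors was not tested. Without array 1, 3 genes of the list fell (median -2.42), and without array 2, 6 fell (median -5.56), with the lone homozygous array again assumed to vary like the other groups and 708 and 2703 genes called over all.

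Heart and epicardium factors, the programme in which Tbx20, Tbx18, Gata4 and Tcf21 are also known, gave no call. Of 7 tested none passed against wild type (limma), 3 had an unadjusted p under 0.05, beside 28.9% of all genes, and the median was -0.69. Hand2 was at 2.55, Wt1 at -1.07, and Meis1, a homeobox cofactor, at -0.69.

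**Figure D4:**
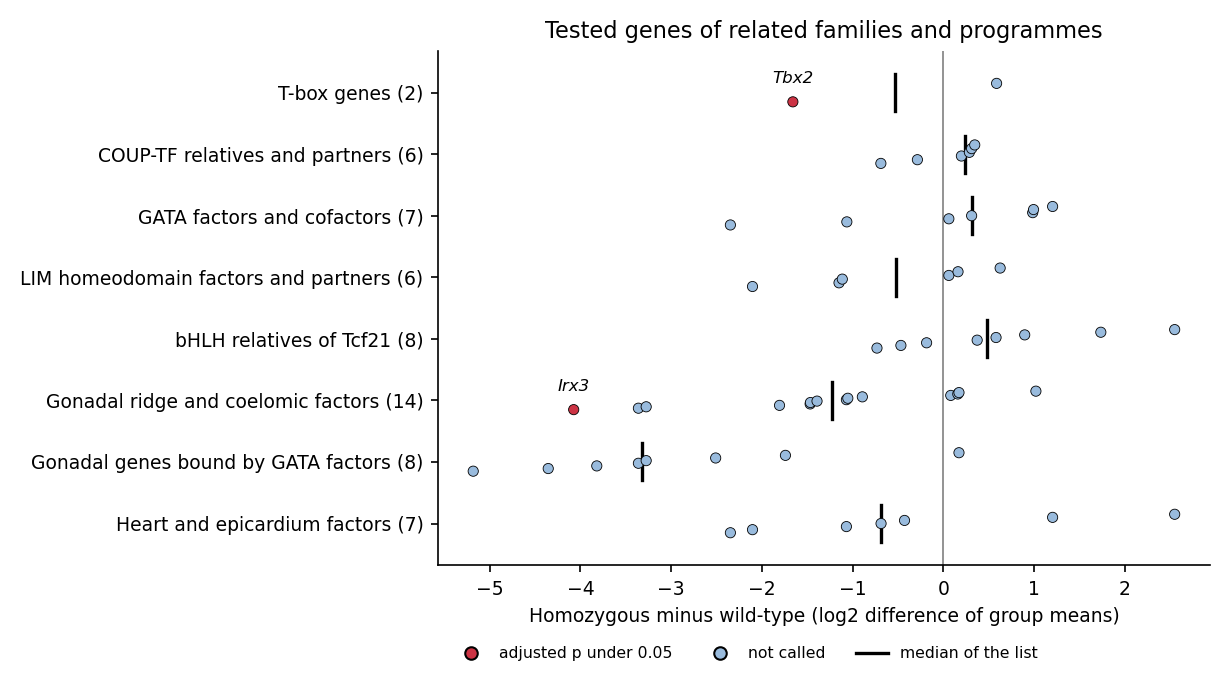
Log2 difference of group means, homozygous minus wild type, for the tested genes of each related list (number tested in brackets), with a black bar at the list's median and red points for adjusted p under 0.05. Irx3 and Tbx2 are the called genes, and the genes bound by GATA factors have the lowest median of the lists drawn, -3.32.

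Markers of macrophages, endothelium, and granulosa and theca summed lower in both homozygous arrays, while those of fibroblasts and smooth muscle did not. Summed macrophage markers were 2073 to 4432 in the 4 other arrays and 490.0 and 667 in the homozygous arrays, where Lyz2, C1qa and Tyrobp were under background. Summed endothelial markers were 9083 to 10908 and then 1911 and 2744, while Tie1 was under background in all arrays. Summed granulosa and theca markers, which include Star, were 2799 to 7601 and then 279 and 1405, while Cyp17a1 was under background in all arrays. Fibroblast markers summed to 22705 to 39386 in the other arrays, 22628 in homozygous array 1 and 56385 in array 2, and smooth muscle markers to 21072 to 33630, 11677 and 46941. Tcf21 was thus high in the homozygous array with the higher fibroblast and smooth muscle sums and low in the other. Of 7 fibroblast markers tested, however, 5 were below 0 against wild type, with a median of -2.07, and of -2.31 against heterozygous cells. Called lower in both comparisons were Pdgfra of fibroblasts, Lyz2 and Mpeg1 of macrophages, Icam2, Kdr and Esam of endothelium, and Upk1b of surface epithelium. The calls against wild type ended when any single wild-type or heterozygous array was left out. The part of these cell types in the levels of the factors was not tested.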

How the data were processed

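The deposited values are array intensities on a linear scale for 45101 probe sets, per the file headers and the values. The submitters' processing notes name RMA without a version, but the mean of the middle of each array was 500.0, the form of scaled linear signals. The authors' intensities were taken to log2 with no offset. Probe sets with 1 gene symbol in the platform annotation (34958, of which 34754 matched a RefSeq gene table by Entrez identifier) gave 18194 genes. Genes at or above the 40th percentile of mean signal, a geometric mean of 60.2, were tested (10916) with limma 3.58.1 in R 4.3.3, as 3 group means in a single fit with 3 residual degrees of freedom. Errors are limma standard errors, and calls had a Benjamini-Hochberg adjusted p under 0.05. The scripts also used Python 3.11.15 and matplotlib 3.10.9, and the fit was tested on simulated data.

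The members and lists were chosen with earlier results of these data known. Genes named beside the 10 factors were the called genes of each list or, with none called, up to 3 with the highest mean signal. The 5 genes nearest to Foxa2, Gata4 and Lhx9 were named too. Some neighbours, some markers under background and some genes picked after their values were seen were named outside these rules. A fold against a group wholly under background was computed against that level. Alternatives covered normalisation, offset, filter, probe set choice, array weights, the replicate block and leaving out arrays. Linear signals spread widely near background, and precision is limited by the number of arrays.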

Additional observations from a re-analysis of the deposited data

How the results depend on the processing

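Counts of called genes moved with many settings. Homozygous minus heterozygous calls, 446 as reported, were 293 with array weights, 762 with log2 of value plus 16, 281 with the mean of all probe sets, 17 with no filter, 4 with only the compared groups, 798 with values raised to background, and 0 without wild-type array 2 and heterozygous array 1, chosen after seeing the data. Homozygous minus wild-type calls, 291 as reported, were 656, 190, 0, 0, 666 and 0 under the same settings in that order from log2 of value plus 16. With the replicate block these counts were 19 and 0, and adjusted p (limma) was 0.0602 for Irx3 and 0.0887 for Tbx2 against wild type. The replicate numbers do not pair the arrays (correlations of deviations -0.303, -0.0997 and 0.155). Leaving out each array in turn gave 0 to 2902 and 0 to 2703 calls: 797 and 708 without homozygous array 1, 2902 and 2703 without homozygous array 2, and 7 or fewer without any other array. Heterozygous minus wild-type calls were 0 in every setting. The cause was not tested.

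The median of Foxa2, Tbx20 and Nr2f1 against wild type was 4.81 with centred arrays, 3.94 with log2 of value plus 16, 3.46 with the mean of probe sets, 4.76 after quantile normalisation, and 3.75 to 6.12 on leaving out each array. Against heterozygous arrays it was 4.75 with log2 of value plus 16, 3.81 with the mean of probe sets, 4.82 with raised values, and 4.41 to 5.97 on leaving out each array. Between heterozygous and wild-type arrays it was 1.13 without the closest arrays and -0.40 to 0.84 on leaving out each array. For Gata4, Gata6, Lhx9 and Tcf21 the heterozygous median was 0.14 with centred arrays, 0.0255 with the mean of probe sets, 0.0821 without the closest arrays, and -0.00694 to 0.118 on leaving out each array. Their homozygous medians were -2.83 to -0.21 against wild type and -3.10 to -0.27 against heterozygous arrays on leaving out each array. Lhx2, under background in all 6 arrays, has no measured fold (0 with values raised), and its unadjusted log2 values ran from -0.42 (without heterozygous array 1) to 2.73 (without heterozygous array 2) and stood at -0.77 without the closest arrays, and the second Tbx20 probe set gave 0.22, all heterozygous minus wild type.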

Other observations

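Some developmental genes of the lists had higher signal in homozygous array 1 than in array 2, and those named here were picked after their values were seen. Tbx15, a T-box gene of skeleton and limb, read 289 in homozygous array 1, 2.45 in array 2 and 5.19 to 33.6 in the other arrays. Isl1, a LIM-homeodomain factor of heart progenitors and motor neurons, read 626 in homozygous array 1 and 2.63 in array 2, with 98.1 to 370.05 in the others. Hoxa10, a homeobox gene of the uterus and hindlimb, read 248 in homozygous array 1, 26.2 in array 2 and 10.8 to 28.6 in the others. Isl1 was thus above background in every array but homozygous array 2. Nr5a1, which encodes the gonadal regulator SF-1, had the opposite order, with 9.21 in homozygous array 1, 556 in array 2 and 621 to 736 in the others.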
